A study of Mus musculus with 6 samples.

Results

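Accessible chromatin was described at 10 genes of vitamin D metabolism, klotho signalling and calcium handling in the mouse kidney: Cyp27b1, Cyp24a1, Vdr, Kl, Pth1r, Casr, Trpv5, Calb1, S100g and Slc8a1. An interval of the deposited peak list belonged to a gene when it overlapped the stretch from 3 kb upstream of the gene start to the gene end. By this rule 160 distinct intervals of 279569 in the list (0.0572%) lay at the 10 genes, and 529 summits, the local maxima that the peak caller marks inside an interval, lay in their regions. The rule for intervals used position only, while the genes themselves were chosen with earlier results of these data known.

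The assay was ATAC-seq, in which the Tn5 transposase inserts sequencing adapters into open chromatin, on nuclei of kidney cortex. The libraries mapped here are 3 WT libraries, from Acly fl/fl littermates that lack Cre, and 3 Acly cKO libraries, from Acly fl/fl mice that carry Ksp-Cre. This Cre is driven by the Cdh16 promoter and recombines in tubule epithelium, proximal, distal and collecting duct alike, so other kidney cells kept the floxed gene. All 6 libraries are labelled as control treatment, and the study's methods give an age for its injury-model mice but none for the ATAC-seq mice in particular. Batches 1 and 2 held WT libraries alone and batches 4 and 5 Acly cKO libraries alone, so genotype cannot be told apart from batch. The deposited peaks are a single call named for all libraries together. No value belongs to a single library or genotype, so the genotypes could not be compared, no value has a replicate error, and the depth behind the values is unknown. Cells are not separated either, so a low value from a rare cell type and a low value in every cell cannot be told apart. Marker genes were checked for a summit within 1 kb of the start, which 75.4% of coding genes have. All 6 proximal tubule genes on the list had it (5.30 to 33.1-fold). So did all 5 of the thick ascending limb and distal tubule (4.39 to 20.8-fold). All 5 of the collecting duct (4.19 to 23.0-fold) and all 4 of podocytes (3.14 to 17.4-fold) had it too. The same held for all 4 endothelial genes, at 2.03 to 8.64-fold, and for 3 of 4 immune genes, of which Cd74 had the highest value and Ptprc the lowest, 1.90-fold. Genes of other organs had a start summit in 4 of 7 cases, none above 3.40-fold. Some podocyte and endothelial markers were no higher, such as Nphs1 at 3.14-fold and Emcn at 2.75-fold. A start summit alone therefore does not identify the tissue.

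The kidney makes the active form of vitamin D and also destroys it. Cyp27b1 encodes the activating hydroxylase of the proximal tubule, Cyp24a1 the hydroxylase that inactivates the hormone, and Vdr its nuclear receptor, which binds DNA as a heterodimer with a retinoid X receptor at direct repeats. Kl encodes klotho, the co-receptor that lets tubule cells sense FGF23. Pth1r encodes the receptor of parathyroid hormone and Casr the receptor that senses extracellular calcium. In the distal tubule calcium enters through the channel Trpv5, is carried across the cell by the calbindins Calb1 and S100g, and leaves at the basolateral side through exchangers such as Slc8a1.

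The sequences that carry the main observations were read from GRCm39 and are given 5′ to 3′ with positions counted from 1. The Cyp24a1 stretch, chr2:170339202-170339397 on the plus strand, is shown because it holds the strongest summit of that gene (170339379) and a pair of direct repeats, in capitals. The gene itself is on the minus strand.
Cyp24a1 upstream: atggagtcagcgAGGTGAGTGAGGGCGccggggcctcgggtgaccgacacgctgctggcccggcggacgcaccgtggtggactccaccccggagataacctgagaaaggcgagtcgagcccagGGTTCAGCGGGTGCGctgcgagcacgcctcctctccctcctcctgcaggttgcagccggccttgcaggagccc

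The 150 bases before the canonical start of 5 genes are shown because their content of CG, in capitals, differed widely. They are Cyp27b1 (chr10:126883969-126884118, plus strand), Trpv5 (chr6:41657704-41657853, minus strand), Kl (chr5:150875922-150876071, plus strand), Vdr (chr15:97806198-97806347, minus strand) and Pth1r (chr9:110571788-110571937, minus strand).
Cyp27b1: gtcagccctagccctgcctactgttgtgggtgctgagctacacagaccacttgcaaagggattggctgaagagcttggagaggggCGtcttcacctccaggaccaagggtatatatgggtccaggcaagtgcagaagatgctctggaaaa
Trpv5: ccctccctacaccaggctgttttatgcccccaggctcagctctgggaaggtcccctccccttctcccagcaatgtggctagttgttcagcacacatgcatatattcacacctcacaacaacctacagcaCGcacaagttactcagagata
Kl: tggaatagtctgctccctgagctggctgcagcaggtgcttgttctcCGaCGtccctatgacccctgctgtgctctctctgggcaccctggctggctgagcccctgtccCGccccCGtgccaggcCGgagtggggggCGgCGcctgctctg
Vdr: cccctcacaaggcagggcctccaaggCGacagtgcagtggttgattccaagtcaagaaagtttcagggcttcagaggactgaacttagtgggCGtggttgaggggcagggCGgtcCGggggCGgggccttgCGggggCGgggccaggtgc
Pth1r: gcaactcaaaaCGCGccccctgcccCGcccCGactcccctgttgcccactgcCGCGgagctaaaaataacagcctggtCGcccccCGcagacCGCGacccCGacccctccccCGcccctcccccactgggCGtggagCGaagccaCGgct

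For Slc8a1 the 120 bases before the canonical start (chr17:82045892-82046011, minus strand) and before the annotated start with the highest value (chr17:81977617-81977736, minus strand) are set side by side, with CG in capitals. They hold 5 and 21 CG.
Slc8a1 canonical: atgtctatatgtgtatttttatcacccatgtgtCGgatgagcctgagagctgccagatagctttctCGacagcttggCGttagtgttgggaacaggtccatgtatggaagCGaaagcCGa
Slc8a1 alternative: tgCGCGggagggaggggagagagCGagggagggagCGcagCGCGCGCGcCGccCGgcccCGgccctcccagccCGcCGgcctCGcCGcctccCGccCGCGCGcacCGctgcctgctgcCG

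Around 4 strong summits away from a start, the base of the summit is in capitals and the plus strand is shown. They are the summit in intron 2 of Mettl1 upstream of Cyp27b1 (chr10:126879279-126879336), the strongest summit downstream of Cyp24a1 (chr2:170311640-170311740), and those in intron 1 of Pth1r (chr9:110561775-110561875) and intron 1 of Casr (chr16:36365855-36365955).
Mettl1 intron: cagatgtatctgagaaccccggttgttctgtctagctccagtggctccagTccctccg
Cyp24a1 downstream: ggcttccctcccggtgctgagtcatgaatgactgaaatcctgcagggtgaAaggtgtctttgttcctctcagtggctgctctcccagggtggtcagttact
Pth1r intron: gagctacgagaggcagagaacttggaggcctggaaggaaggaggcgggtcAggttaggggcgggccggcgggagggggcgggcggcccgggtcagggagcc
Casr intron: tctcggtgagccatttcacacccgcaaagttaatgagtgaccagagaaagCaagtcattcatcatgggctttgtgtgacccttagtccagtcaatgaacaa

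The unit throughout is the fold enrichment at a summit, the read pileup over the background as the caller wrote it, together with its -log10 q. The 2 values carried the same order. The 749750 summits of the list took 1549 distinct fold values and each came with a single q. Adjacent fold values lay about 0.0655 apart, so equal values at different summits are common. Every one of the 10 genes had a summit within 1 kb of the start of its canonical transcript, against 75.4% of 21757 protein-coding genes. In 8 of the 10 it reached 5-fold, against 64.3% of coding genes, and all 10 had an interval in the region, against 83.2%. With 10 genes these shares are a description.

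The start values spanned from 32.0-fold at Cyp24a1 to 2.75-fold at Slc8a1. Below Cyp24a1 came Vdr at 27.5-fold, Kl at 24.2-fold, Calb1 at 18.4-fold and S100g at 13.4-fold. Cyp27b1 at 10.8-fold, Pth1r at 10.0-fold and Trpv5 at 7.92-fold followed, and Casr at 4.39-fold stood just above Slc8a1. The vitamin D receptor, the inactivating hydroxylase and klotho thus had the most open start sites of the 10 in this pooled list, and the calcium sensor and the sodium-calcium exchanger the least. The median over coding genes with a start summit was 28.5-fold, so the Cyp24a1 start alone of the 10 was above it. Over all coding genes, with or without a start summit, the median was 17.0-fold, and Cyp24a1, Vdr, Kl and Calb1 were above that. The lowest rank was that of Slc8a1, whose start value was above that of 29.8% of coding genes, and the highest that of Cyp24a1, above 66.4%.

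**Figure D1:**
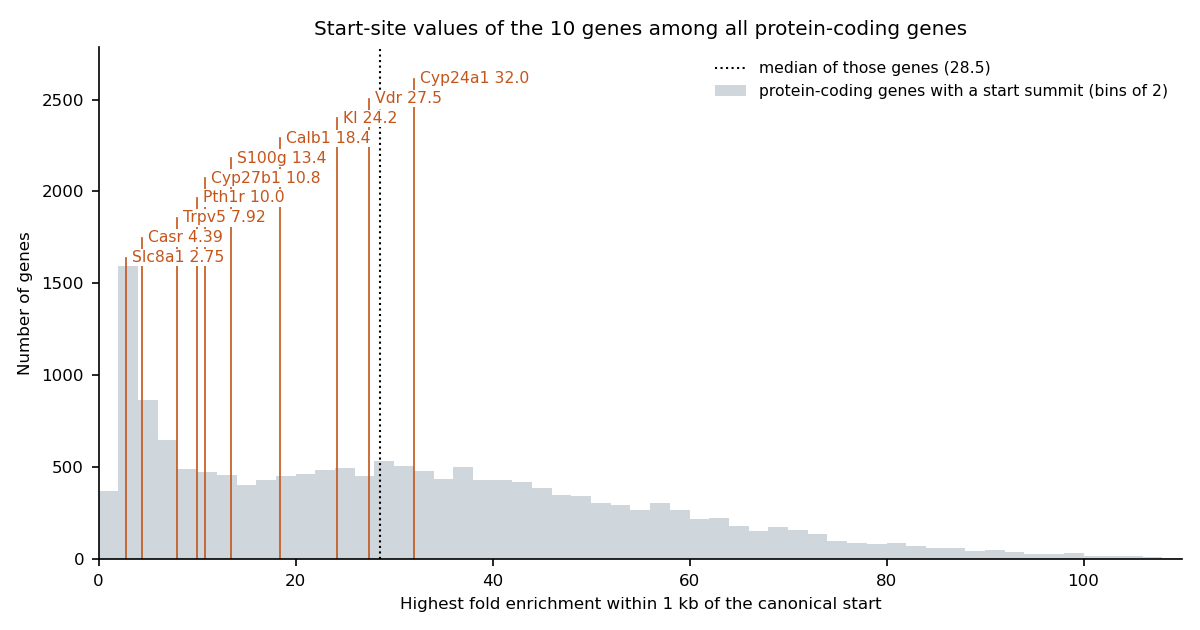
Highest fold enrichment within 1 kb of the canonical start (x axis) of the 10 genes, as labelled orange lines over the number of protein-coding genes with a start summit (grey bars, bins of 2 on the fold scale, y axis). The lines run from 2.75 at Slc8a1 to 32.0 at Cyp24a1, and 9 of 10 lie left of the dotted median of 28.5; the height of a line has no meaning.

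Base composition around the start differed among the genes in an order unlike that of the start values. In the window from 250 bases before to 50 bases after the start, Pth1r held 25 CG and Cyp24a1 23, while Kl and Casr held 19 each, Vdr 14 and Slc8a1 11. Calb1 held 7 CG, S100g 3, Cyp27b1 2 and Trpv5 1, against a median of 11 over coding genes. The GC content ranged from 41.0% at S100g to 67.3% at Kl. The proximal tubule hydroxylase and the distal calcium channel therefore had start windows nearly free of CG, and the ratio of observed to expected CG was 0.0909 and 0.0596, below that of all but 10.5% and 6.65% of coding genes. Casr had a CG-rich start with a low start value, and S100g a CG-poor start with a higher value (13.4 against 4.39-fold). The box TATAAA was not found in the 50 bases before the canonical start of any of the 10 genes, and 3.20% of coding genes had it. Only these exact letters were searched, and variants of the box were not.

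In 5 of the 10 genes the highest summit of the region was not within 1 kb of the canonical start, against 32.7% of coding genes with a summit in the region. These were Cyp27b1, Pth1r, Casr, Trpv5 and Slc8a1. At Trpv5 the distance was 1021 bases, just past the limit. The plot of summits by distance shows these patterns gene by gene.

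**Figure D2:**
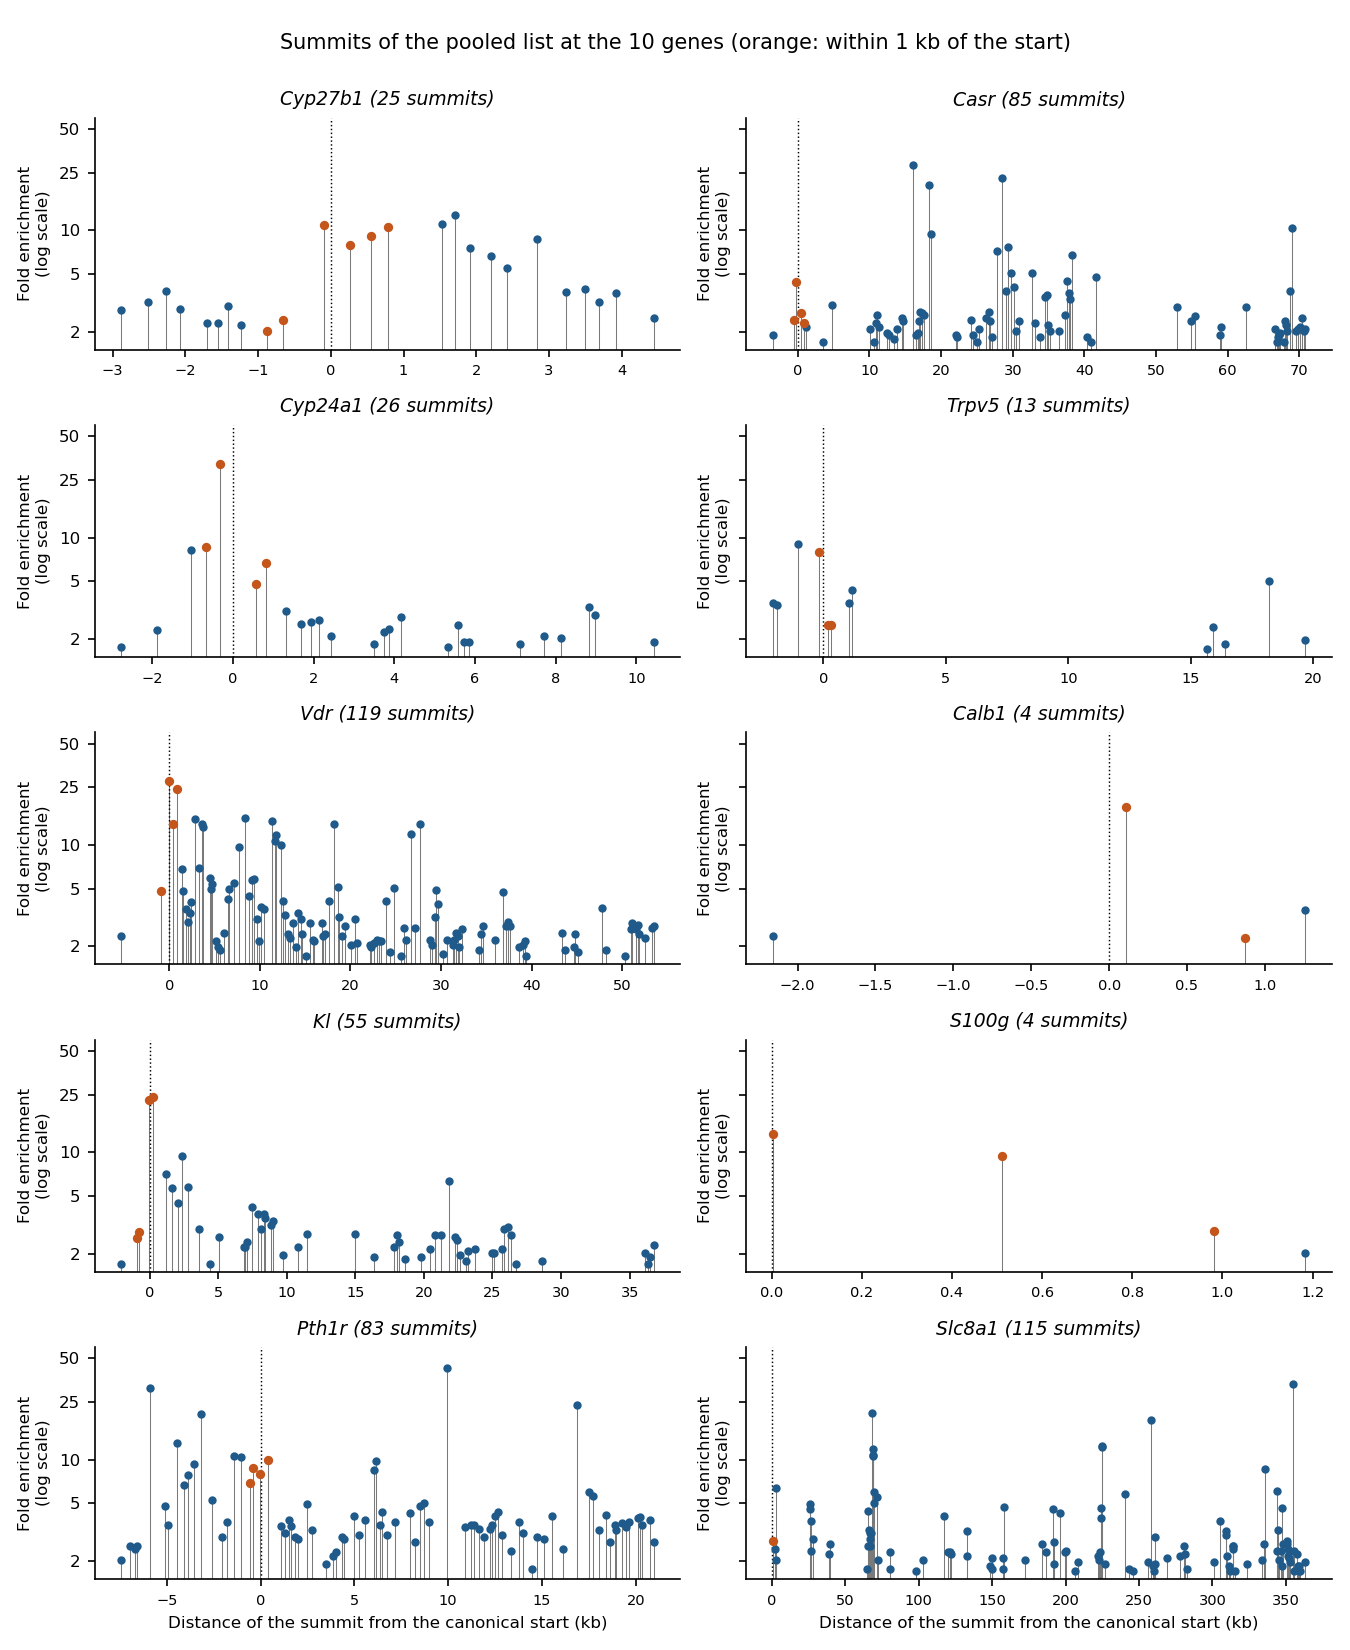
Fold enrichment (log scale, y axis) of every summit in the region of each gene against its distance from the canonical start along the gene's strand in kb (x axis), 1 panel a gene, with summits within 1 kb of the start in orange. Cyp24a1, Vdr, Kl, Calb1 and S100g peak at the start, while Pth1r, Casr and Slc8a1 have their highest summits at 42.8, 28.0 and 33.5-fold far from it.

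Cyp27b1 (ENSMUSG00000006724.13, chr10:126884119-126888875, plus strand) lay inside a single interval of 17166 bp, chr10:126871508-126888673, which covered 97.4% of its region. The interval also covered the starts of Mettl1, a tRNA methyltransferase gene, and Eef1akmt3, a lysine methyltransferase gene, so the interval value by the rule belongs to a summit outside the region. Of its 49 summits, 25 lay in the Cyp27b1 region and 24 outside. The highest reached 51.5-fold (-log10 q 1033) in intron 2 of Mettl1, 4790 bp upstream of the Cyp27b1 start, and was higher than that of 98.8% of all intervals. The next outside summits were at the Mettl1 start itself, with 31.8-fold at 6318 bp upstream, and at 6715 bp upstream with 19.4-fold near the Eef1akmt3 start. A further summit in Mettl1 reached 16.8-fold at 5360 bp upstream, and those farther upstream in Eef1akmt3 reached 14.2-fold at 11780 bp and 13.0-fold at 10437 bp. Introns of Mettl1 and Eef1akmt3 are known from mouse work to hold kidney regulatory elements of Cyp27b1.

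Within its own region Cyp27b1 had moderate values. The summit nearest the start, 88 bp upstream, had 10.8-fold, and 14 summits in the gene body ran from 2.49 to 12.7-fold, the highest in intron 3 at 1710 bp. Of these 14, 9 reached 5-fold. The 8 summits between 3 kb and 1 kb upstream were low, from 2.23 to 3.80-fold. The Cyp27b1 start was thus an opening of about 10-fold that ran on into the gene body as far as 2842 bp. Gene-body summits on that stretch had 5.50 to 12.7-fold, and past it they did not exceed 3.93-fold. Low summits upstream separated this opening from the much higher summit in Mettl1. Beyond the interval, a summit in intron 2 of Eef1akmt3 had 20.0-fold at 14801 bp upstream. The highest summit within 50 kb of the region, 55.3-fold, was at the Cdk4 start, 15176 bp downstream.

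Cyp24a1 (ENSMUSG00000038567.6, chr2:170324628-170339065, minus strand) had 8 intervals, and 1 of them reached 5-fold. It was the interval at the start, chr2:170336473-170340387, with 10 summits and 32.0-fold (-log10 q 543) at 314 bp upstream. This summit also lies in the opposite-strand gene Pfdn4, whose longest transcripts begin 717 bp inside Cyp24a1, so the openings of these starts cannot be told apart. The canonical Pfdn4 start is 14090 bp away and had its own summit of 24.8-fold. Summits on either side at the Cyp24a1 start were lower, with 8.64-fold at 657 bp upstream and 6.68-fold at 820 bp downstream in a coding exon.

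Strong intervals lay beyond the 3′ end of Cyp24a1, outside its region and in no protein-coding gene. They reached 31.5-fold at 27375 bp from the start, 29.9-fold at 37129 bp, 25.3-fold at 21844 bp, 19.0-fold at 32170 bp and 13.1-fold at 46004 bp. The highest of them was 0.52 below the start summit on the fold scale. Between the first 1 kb of the gene and its end, the summits did not exceed 3.34-fold, so the gene body was low between an open start and an open downstream cluster. A cluster of vitamin D responsive elements downstream of Cyp24a1 is known from mouse and human cells, and these data do not show which factor is bound.

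**Figure D3:**
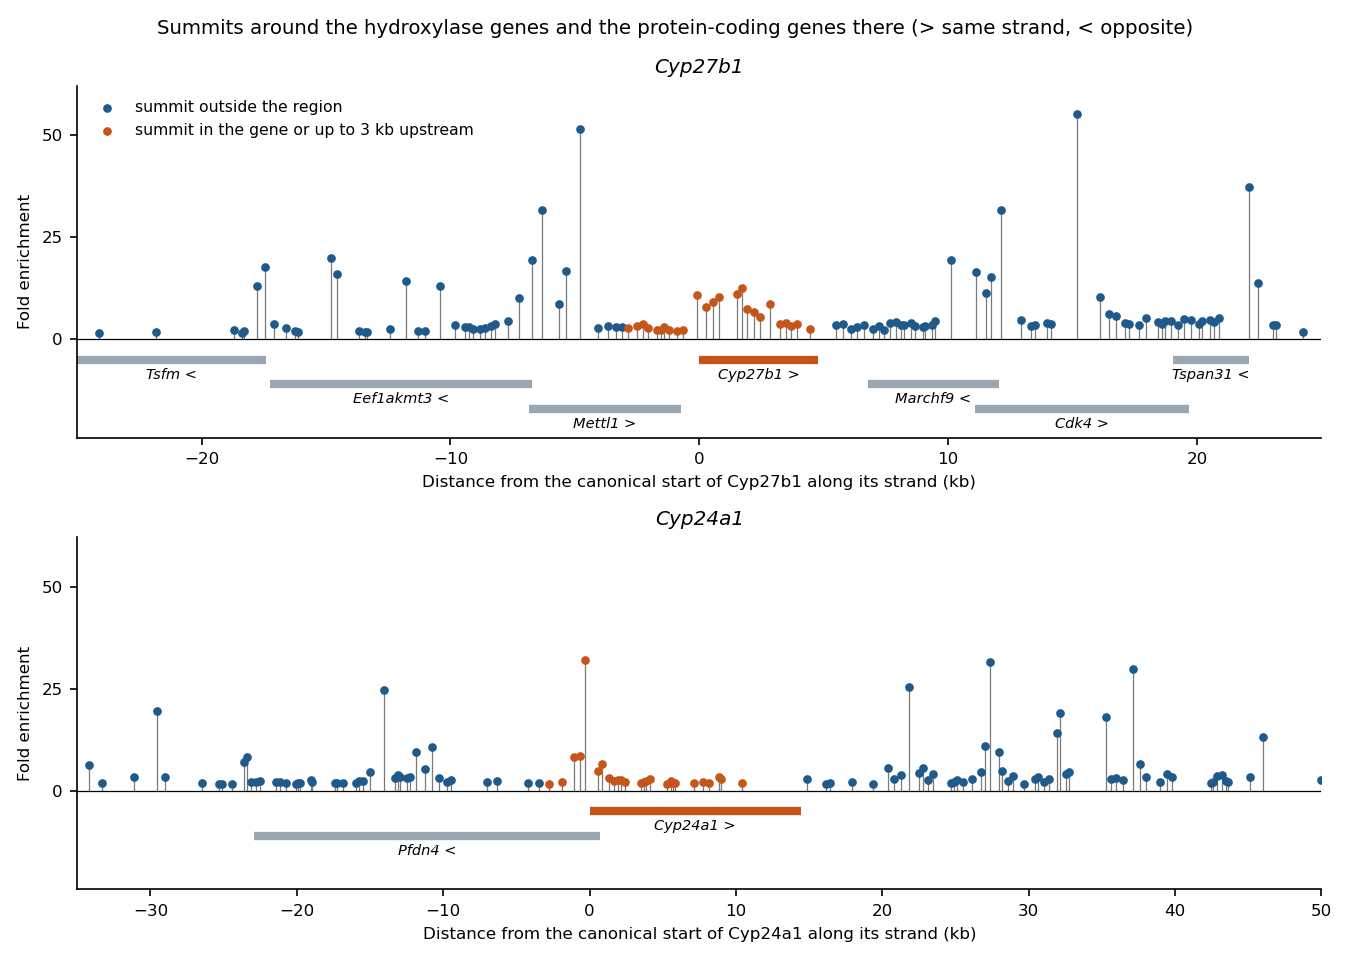
Fold enrichment (y axis) of all summits around Cyp27b1 (top, 25 kb to either side) and Cyp24a1 (bottom, from 35 kb upstream to 50 kb downstream) against distance from the canonical start in kb (x axis), with summits in the gene region in orange, others in blue, and protein-coding genes as bars. At Cyp27b1 the summit in Mettl1 (51.5-fold) stands above all summits of the gene itself, and at Cyp24a1 the start (32.0-fold) and 3 downstream summits (31.5, 29.9 and 25.3-fold) are of like height.

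The direct repeats at Cyp24a1 sit under the open start. The vitamin D receptor element was searched on both strands as 2 units with 3 bases between. A unit could read AGTTCA, could read AGGTCA, could read GGTTCA or could read GGGTCA. It was found in 0 of the 160 windows of 200 bp around the highest summit of the members' intervals and in 0 of the 160 whole intervals, against 0.0905% and 0.352% of all intervals. The unit AGGTGA, the unit AGGGCG and the unit GGTGCG, known from the rodent Cyp24a1 promoter, were then added, and with them Cyp24a1 had AGGTGAGTGAGGGCG at 163 bp upstream (170339214 to 170339228) and GGTTCAGCGGGTGCG at 274 bp upstream (170339325 to 170339339). These matches follow from the way the units were chosen and are no independent finding. The element farther from the start ended 40 bases short of the 32.0-fold summit and the nearer one 151 bases short. The wider set was in 2 of the 160 whole intervals (1.25%, against 0.759% of all). It was in 2 of the 160 windows around highest summits (1.25%, against 0.185%). Cyp24a1, whose promoter gave the added units, is 1 of the 2 in both counts, so these shares are no independent excess. In start windows, which reach only 250 bases upstream, the wider set again matched at Cyp24a1, at 163 bp, and in 0.221% of coding genes. At Calb1, whose product buffers calcium in distal cells, it gave AGGTGAACAGGTTCA at 2217 bp upstream, in an interval of 2.36-fold.

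Vdr (ENSMUSG00000022479.17, chr15:97752306-97808511, minus strand) had 26 intervals and 119 summits, and its intervals covered 64.3% of the region. The start interval had 27.5-fold (-log10 q 439) at 33 bp upstream, and a summit of 24.4-fold lay 902 bp downstream in intron 1. Farther into intron 1 came 15.2-fold at 2835 bp, 13.9-fold at 3572 bp, 15.3-fold at 8395 bp, 14.7-fold at 11352 bp and 14.0-fold at 18131 bp. In intron 3 summits of 11.9-fold and 13.9-fold lay at 26706 and 27674 bp, and farther on in the gene the highest was 4.91-fold. Other summits of at least 5-fold in these introns ran from 5.04 to 13.9-fold, so the heights were uneven. The lncRNA Gm62301 starts on the opposite strand within 1 kb of the start summit, so the openings of these starts cannot be told apart. Outside the region, 24.0-fold was found 30409 bp and 19.6-fold 35222 bp upstream, in no coding gene, and past the gene end the highest summit, 30.2-fold, lay within 1 kb of the Hdac7 start.

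Kl (ENSMUSG00000058488.9, chr5:150876072-150917284, plus strand) had 18 intervals, of which 2 reached 5-fold. The start interval held summits of 23.1-fold at 14 bp upstream and 24.2-fold (-log10 q 366) at 260 bp downstream in coding exon 1, so the opening straddled the start. It ran on into intron 1 with 7.14-fold at 1179 bp and 9.49-fold at 2350 bp. The other strong interval, also in intron 1, had 6.35-fold at 21816 bp. The klotho gene was low elsewhere, with a median of 2.26-fold over its 18 intervals. Its flanks held 19.3-fold at 40212 bp upstream and 17.7-fold at 44137 bp from the start, which is 2925 bp past the gene end. The highest summit of the flanks, 20.2-fold, lay farther on at 90481 bp, in intron 12 of Stard13.

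Pth1r (ENSMUSG00000032492.16, chr9:110550767-110576259, minus strand) was covered by intervals nearly throughout: 3 intervals, 2 of them 23067 and 13054 bp wide, covered 98.5% of the region and held 83 summits in it. This coverage counts stretches of any listed height, and the narrowest interval had 2.95-fold. The highest summit was not at a start but in intron 1, with 42.8-fold (-log10 q 805) at 9962 bp from the canonical start, higher than that of 98.2% of all intervals. A summit in intron 8 had 23.8-fold at 16896 bp. The canonical start had 10.0-fold. Upstream of it, in introns of longer Pth1r transcripts, a summit of 20.7-fold lay at 3162 bp, which is 521 bp upstream of the annotated start at 2641 bp. The farthest annotated start, 4472 bp upstream, had 13.0-fold within 10 bp, and beyond the gene start a summit of 31.4-fold lay at 5908 bp upstream. These upstream summits also lie in Myl3, a myosin light chain gene that overlaps the 5′ end of Pth1r, and the part of each gene in them was not tested. An upstream promoter of Pth1r is known to be used mainly in the kidney, and the values here give the opening at each start, not the transcripts made from it.

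Casr (ENSMUSG00000051980.15, chr16:36310949-36382503, minus strand) had 31 intervals, more than 93.9% of coding genes, and a start value of 4.39-fold. Its strong summits were in intron 1, with 28.0-fold (-log10 q 451) at 16063 bp, 20.7-fold at 18291 bp and 23.0-fold at 28485 bp. The last of these lay 864 bp upstream of an annotated alternative start at 29349 bp. A summit of 10.4-fold at 68986 bp lay past the end of the canonical transcript, in the 3′UTR of the 3 longer ones. The calcium sensor thus differed from klotho and the vitamin D receptor in that intron 1 was more open than the start. An interval of 1.90-fold in intron 1 covered the start of Gm61042. The flanks of Casr were low, and no summit within 50 kb of the region exceeded 6.29-fold.

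Slc8a1 (ENSMUSG00000054640.18, chr17:81680534-82045891, minus strand), the longest of the 10 genes at 365 kb, had the most intervals, 63, more than 98.4% of coding genes. Per length it was not dense, with 1.71 intervals per 10 kb against 4.59 at Cyp24a1 and a median of 1.86 over coding genes. The canonical start had a single summit of 2.75-fold at 936 bp, and no interval overlapped the start base. At 2652 bp an interval of 6.42-fold in intron 1 covered the start of Gm65258. The alternative start at 68275 bp had 21.1-fold (-log10 q 301) at 42 bp upstream, and the 3 annotated starts at 88824 to 88855 bp had no summit within 1 kb. The highest summit of the gene, 33.5-fold (-log10 q 577), lay 354775 bp from the canonical start, past the end of the canonical transcript and in the 3′UTR of a longer one. Intron 2 held 18.8-fold at 257942 bp and 12.4-fold at 224912 bp. Slc8a1 is known to use tissue-specific promoters, and of its annotated starts only the one at 68275 bp exceeded 5-fold in this kidney list.

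**Figure D4:**
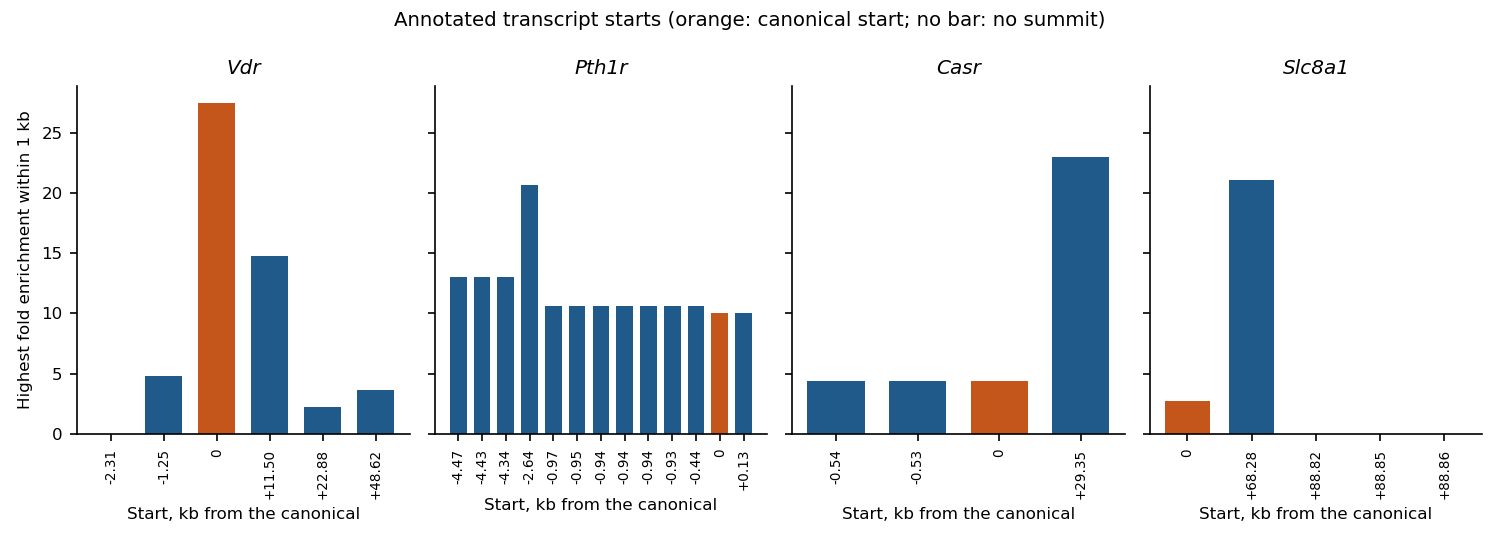
Highest fold enrichment within 1 kb (y axis, bars) of each distinct annotated transcript start of Vdr, Pth1r, Casr and Slc8a1, ordered by distance from the canonical start in kb (x axis), with the canonical start in orange. At Vdr the canonical start is the highest (27.5-fold), and at Pth1r, Casr and Slc8a1 another start is (20.7, 23.0 and 21.1-fold). The Pth1r and Casr values come from summits 521 and 864 bp upstream of those starts, and summits nearer to them had 5.30 and 7.73-fold. Starts within 1 kb of each other share summits.

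The remaining genes of distal calcium transport had fewer intervals than Slc8a1. Trpv5 (ENSMUSG00000036899.11, chr6:41629107-41657703, minus strand) had 6 intervals that covered 15.7% of its region. Its start interval held 7.92-fold at 159 bp and 9.10-fold (-log10 q 82.5) at 1021 bp upstream, and an interval in intron 8 had 5.04-fold at 18208 bp. The paralog Trpv6, on the same chromosome, had 7.14-fold at its start, and that summit lay 44395 bp downstream of the Trpv5 start.

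Calb1 (ENSMUSG00000028222.4, chr4:15881155-15908085, plus strand) had 2 intervals and 4 summits, and 7.94% of its region was covered, the least of the 10. The start interval had 18.4-fold (-log10 q 247) at 109 bp downstream in the 5′UTR. The 4 intervals in the 50 kb upstream did not exceed 2.55-fold, while downstream the highest, 51.6-fold, was at the Decr1 start. S100g (ENSMUSG00000040808.6, chrX:161744988-161747617, minus strand) had 13.4-fold (-log10 q 154) at 3 bp downstream of its start in the 5′UTR and 9.36-fold at 511 bp in a coding exon. Its other interval had 9.23-fold at 3038 bp upstream, with the summit just outside the region, and was higher than 86.6% of all intervals. S100g lies inside Ctps2, the gene of a CTP synthase, so both S100g intervals also lie in Ctps2. For both calbindins the highest summit was thus at the start, with a low second interval at Calb1 (2.36-fold) and a stronger one at S100g.

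Over the 160 intervals, 31 reached 5-fold, a share of 19.4% (Wilson 95% interval 14.0% to 26.2%, counting error only), against 24.5% of all intervals. Slc8a1 had 9 of the 31, Vdr 6 and Casr 5. By place of the highest summit, 11 of the 31 were in intron 1, in Casr, Kl, Pth1r, Slc8a1 and Vdr, and 5 were at the canonical start. The share by place was not computed over all intervals of at least 5-fold. Strong intervals of Cyp27b1, Pth1r and Trpv5 also held start summits (10.8, 10.0 and 7.92-fold) but had their highest summit elsewhere. The median was 2.42-fold, against 2.55 in the whole list, and the median width 446.5 bp, against 434 bp. Of all 160 intervals, 48 (30.0%) had their highest summit in the first intron and 79 (49.4%) in another intron, against 21.7% and 45.8% of the intervals assigned to coding genes in the same way. Only 8 (5.00%) had it within 1 kb of the canonical start, against 8.04%. Neighbouring intervals of a gene are not independent, and Slc8a1, Casr and Vdr held 120 of the 160.

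Over the 7 motifs searched, matches under these summits were about as common as in the whole list. The nuclear receptor element TCAAGGTCA, bound by ERR factors, was in 4 of the 160 windows around the highest summits (2.50%, against 0.680% of all). Around every summit the share was 0.839% against 0.680%, and in whole intervals 3.75% against 2.82%, so the difference rests on few windows. The 4 were at Kl at 21846 bp in the intron 1 interval of 6.35-fold, at Trpv5 at 15972 bp, and at Slc8a1 at 910 and 259579 bp, the last 3 in intervals under 3-fold. The Hnf4 sequence CAAAGTCCA was in 1 window, at Vdr (0.625%, against 0.884% of all). Around every summit its share was 0.671% against 0.579%, and in whole intervals 3.125% against 2.02%. AP-2, searched as GCC and GGC with 3 bases between, was in 11 of the windows around the highest summits (6.88%, against 7.64%). For Hnf1, CRE (TGACGTCA) and NFI the count was 0, against 0.376%, 0.405% and 0.0712% of all windows. Around every summit CRE was in 1 window (0.168%, against 0.278%), and it was in 1 whole interval (0.625%, against 1.01%). That match was at Vdr, in the intron 3 interval of 13.9-fold. Any of the 7 motifs was in 16 windows (10.0%, against 9.97% of all). A match is a description of letters and not a bound site.

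The genes were also set beside 38 others of vitamin D, FGF23, parathyroid hormone, calcium and magnesium handling. Of these 38, 34 had a summit within 1 kb of the canonical start and 29 reached 5-fold, where the shares over coding genes were 75.4% and 64.3%. The median start value of the 38 was 11.7-fold, against 12.1-fold for the 10. The most open starts were those of Atp2b1, a plasma membrane calcium pump that works beside Slc8a1, at 68.8-fold, Cnnm2, of magnesium transport, at 58.9-fold, Dhcr7, which uses up the precursor of vitamin D, at 48.3-fold, and Trpm7, a magnesium channel, at 45.8-fold. Of the retinoid X receptors, partners of Vdr, Rxrb had 37.97-fold, Rxra 24.7-fold and Rxrg 10.3-fold, beside 27.5-fold at Vdr. No start summit was listed for Fgf23, Gcm2, Klb and Pth. Pth and Gcm2, genes of the parathyroid, had no interval at all, while Fgf23, a bone hormone gene, had 1 of 7.40-fold and Klb 4 of at most 5.56-fold. The extrusion pump Atp2b1 was thus far more open at its canonical start than the exchanger Slc8a1, 68.8 against 2.75-fold, or against 21.1-fold at the alternative start of Slc8a1.

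**Figure D5:**
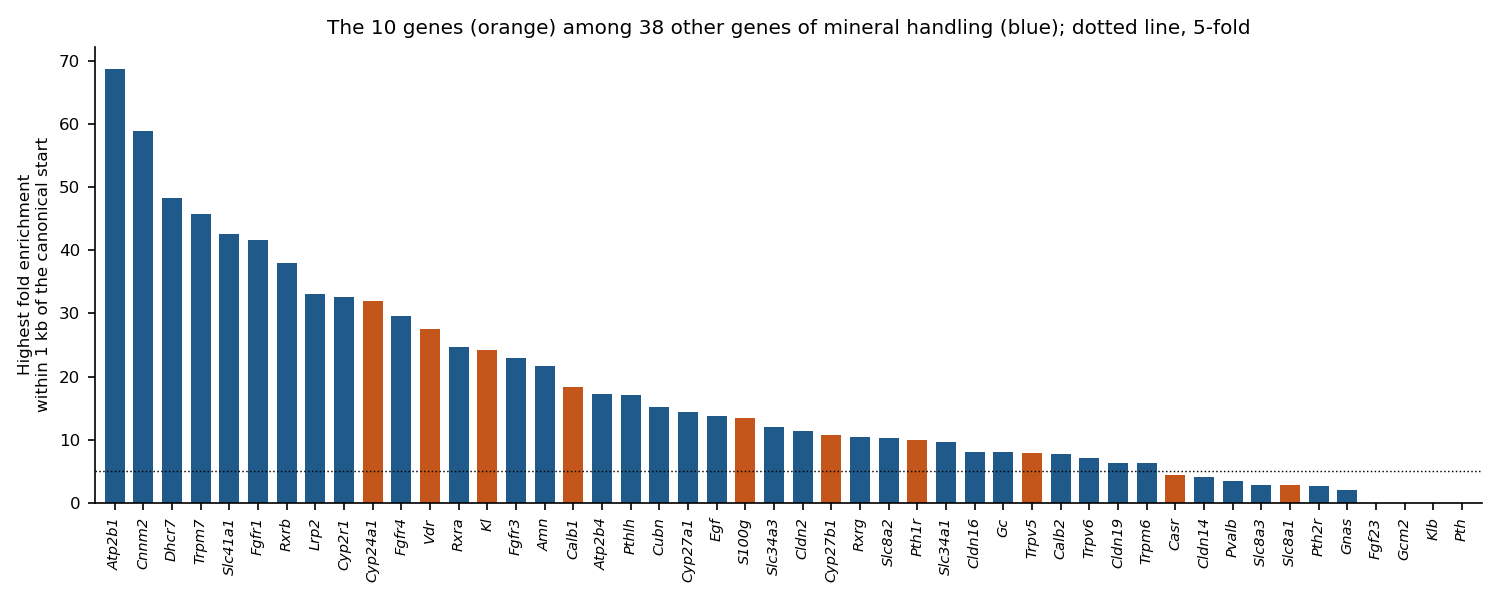
Highest fold enrichment within 1 kb of the canonical start (y axis) of the 10 genes (orange bars) and 38 other genes of mineral handling (blue bars), in falling order (x axis), with a dotted line at 5-fold. Cyp24a1, Vdr and Kl lie in the upper part at 32.0, 27.5 and 24.2-fold, Casr and Slc8a1 below the line, and Fgf23, Gcm2, Klb and Pth have no start summit.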

How the data were processed

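Reads were trimmed by the authors (fastp), mapped to mm39 (Bowtie2 2.3.4.3), freed of duplicates and limited to unique alignments. They called peaks with MACS3 (3.0.0) and removed blacklisted regions with bedtools (2.29.1); versions are from the submitters' processing notes. For every summit the deposited list holds a ratio, the fold enrichment over background, and the -log10 q as the authors' caller wrote it. The deposited summits before filtering give the same -log10 q, and at the 10 genes all 529 summits were in both lists. Which libraries were pooled is not named in the files. The study's ATAC-seq analysis also used earlier WT datasets, and the sources do not say whether these are in the pooled call.

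Rows were reduced to distinct intervals (1 per chromosome, start and end), and the summit with the highest -log10 q gave each interval its values. Genes, canonical transcripts and positions are from GENCODE M39 on GRCm39, and sequences from that genome. Start values are the highest summit within 1 kb. Flanks reached 50 kb. Motifs were searched as exact matches on both strands (Hnf1: GTTAAT and ATTAAC with 1 base between and up to 1 mismatch; NFI: TTGGC and GCCAA with 5 bases between). Windows of 200 bp lie around summits. Groups come from the labels. There is no column per library, so no test was made. The members and lists were chosen with earlier results of these data known. All 10 members are named. Of the 38 other genes those named are the 4 highest and 4 lowest by start value, Trpv6 and Rxra, and neighbours are named where a member's interval covers their start. Pfdn4, Cdk4, Myl3, Ctps2, Hdac7, Stard13, Decr1, Rxrb and Rxrg were named after their values were seen. The motif search was tested on simulated data and found all 1600 planted copies. Alternatives were stricter q and fold minima, other regions, start distances and motif windows. The wider direct repeat and the TATAAA search were added after the data were seen. Tools were Python 3.11.15, pysam 0.24.0, pandas 2.3.3, numpy 2.4.6, samtools 1.23.1 and scipy 1.17.1.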

Additional observations from a re-analysis of the deposited data

How the results depend on the processing

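The number of intervals at the 10 genes was 160. It stayed within 1.5 times that number at a q under 0.01 (133), in the gene body alone (152), with 10 kb added on either side (209) and where the highest summit had to lie in the region (155). It was 82 at a q under 1e-05, 31 at a fold enrichment of at least 5, and 529 when summits were counted, which follows from the construction of these settings. With 10 kb added, 6 of the 10 genes moved past 1.5 times: Cyp24a1 from 8 to 21, S100g from 2 to 7, Pth1r from 3 to 8, Trpv5 from 6 to 11, Calb1 from 2 to 5 and Cyp27b1 from 1 to 2. Cyp27b1 had 0 intervals where the highest summit had to lie in the region, since that of its only interval is in Mettl1. Start sites were counted as open at all 10 genes within 1 or 3 kb or at any transcript, at 9 where an interval had to overlap the start base (not Slc8a1) and at 8 at 5-fold (not Casr and Slc8a1). The count for the 38 other genes was 34, 34 within 3 kb and 29 at 5-fold. The strongest interval was the same at all 10 genes by fold enrichment and by q, whose orders are the same by construction. Any motif was in 16 of 160 windows around highest summits (10.0%, against 9.97% of all), in 51 of 596 around every summit (8.56%, against 8.96%) and in 37 of 160 whole intervals (23.1%, against 24.1%), each near the share of all. No paired analysis was possible because no column belongs to a single library, and for the same reason no replicate could be left out. Depth per library is not known, so an interval that is not listed was not detectable in this pool and is not shown to be closed.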
